A study of Mus musculus with 6 samples.

Results

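Collagens, laminins and the other genes of the basement membrane were followed in basal keratinocytes of mouse ear epidermis. The set held every gene symbol of the form Col, number, a, number (Col17a1 left out), every Lama, Lamb and Lamc gene, and Fras1, Frem1, Frem2, Nid1, Nid2, Hspg2, Agrn and Npnt. This gave 62 of the 49671 genes in the table, of which 43 were collagens, 11 laminins and 8 other genes. With enough reads to test were 36 of the 62, among 15362 genes tested in all. The groups were castrated males, females and intact males of CD1, an outbred mouse stock, with 2 libraries each, and their age is not given in the labels. Living cells that carried integrin alpha 6 and lacked CD34 were sorted from trypsin-separated epidermis, a gate for basal cells outside the bulge of the hair follicle. A library was made from polyA RNA of 100000 sorted cells, pooled from 2 littermates. The p-values therefore measure how pools vary. The sample titles do not give the litter of a pool, so litter and group cannot be told apart here.

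The basement membrane is a thin sheet of matrix between the epidermis and the dermis, to which basal keratinocytes bind through integrins. Laminin trimers, each of an alpha, a beta and a gamma chain, form 1 of its networks and collagen IV trimers the other, with nidogens and heparan sulphate proteoglycans between them. Anchoring fibrils of collagen VII and the complex of Fras1, Frem1 and Frem2 tie the sheet to the dermis, where fibroblasts make the fibril-forming collagens. Keratinocytes are a known source of the laminins of the skin and of collagens IV and VII.

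Libraries held from 8412487 to 9648154 reads, and levels are given as CPM, the reads of a gene relative to the scaled size of its library, in which 1 read was worth 0.102 to 0.128 CPM. Xist stood below 1 CPM in castrated males, at 208 and 153 CPM in females and below 1 CPM in intact males. The 4 Y-linked genes looked at stood at 39.1 CPM or more in castrated males, at 0.204 CPM or less in females and at 36.3 CPM or more in intact males. Markers of basal keratinocytes summed to 41410 CPM or more in every library. Of 12 fibroblast markers 4 had enough reads to test, and Dpt, Twist2 and Mfap5 had no read in any library. The summed fibroblast list was 83.0 and 162 CPM in castrated males, 32.1 and 80.9 CPM in females and 120 and 115 CPM in intact males, mostly from Thy1, and none of its 4 tested genes passed the test in any comparison. Of 7 cartilage markers none had enough reads to test, and Acan, Matn1 and Hapln1 had no read. Among 8 markers of suprabasal keratinocytes, Krt1, Krtdap and Flg were higher (3.71% of all genes) and Dsg1a was lower (2.4%) in females than in intact males. Of the 8, 1 was higher in castrated males than in females (0.566% of all genes). Castrated minus intact males was positive in all 8, where 7697 of 15362 genes were, with a median of 0.73 and 0 past the test. The list summed to 2162 and 2346 CPM in castrated males, 1895 and 2114 CPM in females and 1966 and 1686 CPM in intact males. Of 7 tested leukocyte markers only Cd74 differed. It was higher in females than in intact males (3.71% of all genes) and lower in castrated males than in females (1.14%). Cd74 had 219 and 256 CPM in castrated males, 603 and 1354 CPM in females and 208 and 235 CPM in intact males. Ptprc stayed at 4.66 CPM or less in every library and Cpa3 had no read. Of 6 tested melanocyte markers Mitf was lower in females than in intact males (2.4% of all genes). The melanocyte list summed to 49.7 and 84.5 CPM in castrated males, 33.8 and 44.1 CPM in females and 49.6 and 58.4 CPM in intact males. Of 12 tested hair follicle markers Krt79 and Mgst1 were lower in castrated males than in females, where 1.14% of all genes were, and the list summed to 848 and 875 CPM in castrated males, 1121 and 973 CPM in females and 1289 and 978 CPM in intact males. The part of suprabasal and hair follicle keratinocytes, fibroblasts, leukocytes and melanocytes in the matrix results was not tested.

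Promoters from RefSeq (GRCm38.p6) were at hand for 45 of the 62 genes, 7 of them among the genes that differed between groups. Windows of 300 bases, from 250 before to 50 after the start, are shown for the X-linked pair Col4a6 and Col4a5, which face away from each other and had parallel levels, for Frem2, and for Col23a1, which went the opposite way. The windows are chrX:141474027-141474326 (minus strand, Col4a6), chrX:141475169-141475468 (plus strand, Col4a5), chr3:53657306-53657605 (minus strand, Frem2) and chr11:51289670-51289969 (plus strand, Col23a1). Capitals mark matches, on either strand, to the GC box GGGCGG and the CCAAT box CCAAT.
Col4a6: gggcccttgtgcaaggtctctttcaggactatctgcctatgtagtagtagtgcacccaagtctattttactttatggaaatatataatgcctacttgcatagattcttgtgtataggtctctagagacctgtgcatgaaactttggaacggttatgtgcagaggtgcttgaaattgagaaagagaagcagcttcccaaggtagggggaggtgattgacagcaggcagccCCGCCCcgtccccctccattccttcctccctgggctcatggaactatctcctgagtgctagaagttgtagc
Col4a5: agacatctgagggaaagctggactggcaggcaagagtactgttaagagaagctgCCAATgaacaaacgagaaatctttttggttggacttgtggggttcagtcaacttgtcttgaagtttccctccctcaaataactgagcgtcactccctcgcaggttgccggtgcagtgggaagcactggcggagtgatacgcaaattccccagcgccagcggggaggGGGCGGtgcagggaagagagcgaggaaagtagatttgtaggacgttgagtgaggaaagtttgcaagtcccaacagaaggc
Frem2: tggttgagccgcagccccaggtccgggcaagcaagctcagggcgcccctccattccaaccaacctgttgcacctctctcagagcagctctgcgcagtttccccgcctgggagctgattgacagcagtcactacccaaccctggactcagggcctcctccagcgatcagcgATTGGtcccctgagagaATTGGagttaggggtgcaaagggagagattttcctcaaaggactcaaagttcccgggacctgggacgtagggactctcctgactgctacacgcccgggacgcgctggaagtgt
Col23a1: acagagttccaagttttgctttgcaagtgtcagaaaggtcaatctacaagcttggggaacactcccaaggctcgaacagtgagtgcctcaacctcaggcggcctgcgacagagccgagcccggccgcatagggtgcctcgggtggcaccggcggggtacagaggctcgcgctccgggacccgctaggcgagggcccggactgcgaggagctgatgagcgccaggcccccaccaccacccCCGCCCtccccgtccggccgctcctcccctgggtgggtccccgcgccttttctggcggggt
The Col4a6, Col4a5 and Col23a1 windows each held 1 GC box, with its first base 21, 30 and 11 bases before the RefSeq start, and Frem2 held none. For Col4a5 the RefSeq start lies downstream of the GENCODE start given below, and its GC box lies past that GENCODE start. Such a match occurs in 35.7% of 32851 promoter windows of this length. Col4a5 held 1 CCAAT box, 196 bases before the start, and Frem2 held 2 in reverse (ATTGG), 80 and 63 bases before it, where 37.4% of windows hold at least 1. None of the 4 windows held the letters TATAAA (13.6% of windows), the AP-1 site TGANTCA (7.81%) or the androgen receptor core AGAACA (19.0%). A match or its absence in these letters says nothing of binding.

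Between females and intact males, 9 of the 36 tested matrix genes passed the test (limma, Benjamini-Hochberg adjusted p below 0.05), where 6.11% of all genes tested did. In females 8 of these were lower (2.4% of all genes) and 1 was higher (3.71%). Among the lower genes were the laminin chain Lamb1, Col4a5 and Col4a6 of collagen IV, the anchoring genes Fras1 and Frem2, and the fibril-associated collagens Col16a1 and Col20a1. Col23a1, a collagen that spans the cell membrane, was the higher one. In 29 of 36 genes the fold change was negative, and the median was -0.55 against -0.01 over all genes tested (log2). Females lay wholly below intact males in 24 genes (27.2% of all genes) and wholly above them in 3 (26.6%), where groups did not overlap for 53.8% of all genes. In bulk RNA, fewer cells that make a transcript and less of it per cell cannot be told apart. Fewer genes passed without female replicate 2, either castrated male library or intact male replicate 2, among the matrix genes and among all genes. The matrix median was -0.81 without female replicate 1 and -0.33 without female replicate 2 (log2). It was -0.53 and -0.66 without intact male replicates 1 and 2, and -0.55 without either castrated male library.

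**Figure D1:**
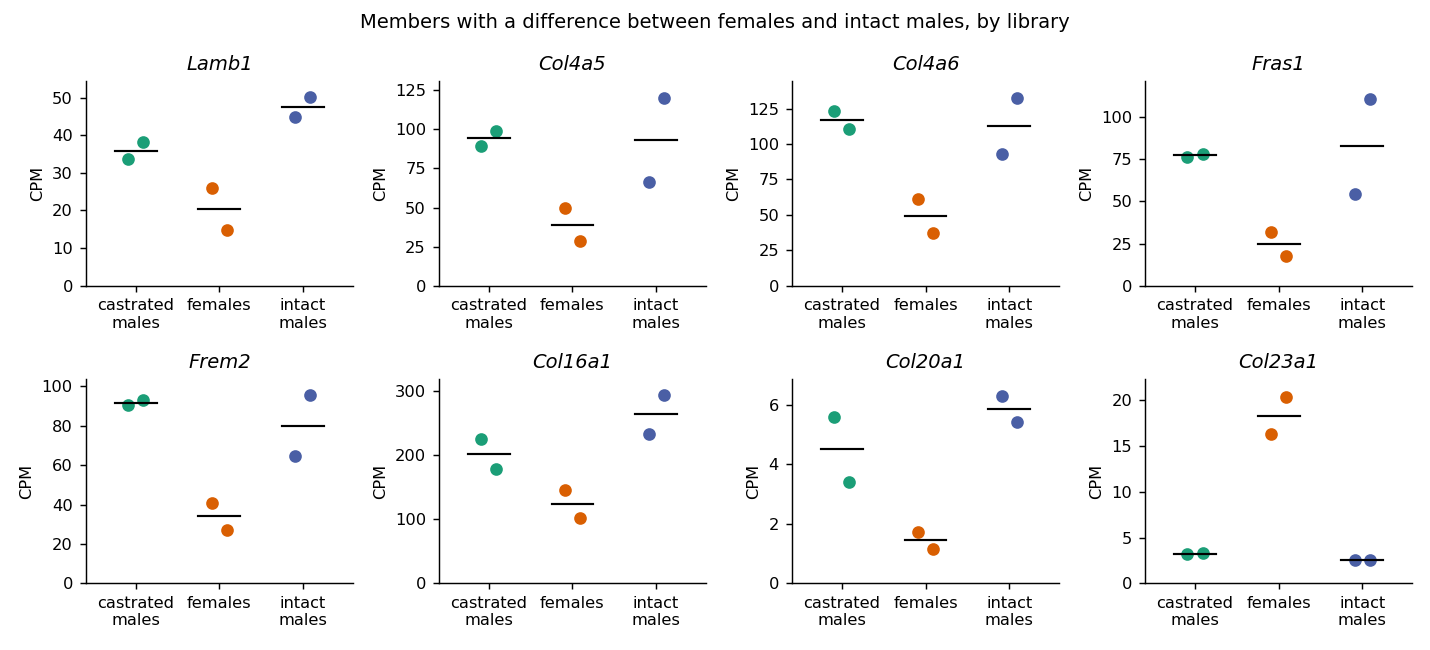
Level in CPM (linear axis from 0) of 8 genes that differed between females and intact males, with 1 point per library and a line at the mean of 2 libraries for castrated males, females and intact males. Both female points lie below all castrated and intact male points in the 7 genes other than Col23a1, where they lie above them.

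The median difference of castrated males from intact males was smaller than that of females. With 2 libraries per group, lack of a call does not show equal levels. None of the 36 genes passed the test between castrated and intact males (limma), where 0.0391% of all genes passed (0.013% higher, 0.026% lower). Voom precision weights also called 0. An unadjusted p below 0.05 was found for 4 of the 36, where 908 of 15362 genes had one. These were Col4a1, Col8a1, Col18a1 and Nid1, each lower in castrated males. In 26 of 36 genes the fold change was negative (72.2%, against 49.9% of all genes), and the median was -0.05, against 0.00 over all genes. Castrated males lay wholly below intact males in 10 genes (18.2% of all genes) and wholly above them in 1 (17.2%), where 35.5% of all genes did not overlap. Against females, castrated males were higher in Col4a6, Fras1 and Frem2 and lower in Col23a1, so that 4 of 36 passed, where 1.71% of all genes did (0.566% higher, 1.14% lower). Their median fold change against females was 0.50 against 0.01 over all genes (log2), and they lay wholly above females in 22 genes (29.3% of all genes) and wholly below them in 9 (28.4%), where 57.7% of all genes did not overlap. Both comparisons with females use the same female libraries, and both comparisons with intact males the same male ones. Against females more matrix genes passed without female replicate 1, and fewer without female replicate 2 or either castrated male library. The same held over all genes. The matrix median against females was 0.72 without female replicate 1 and 0.28 without female replicate 2. It was 0.54 and 0.45 without castrated male replicates 1 and 2.

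**Figure D2:**
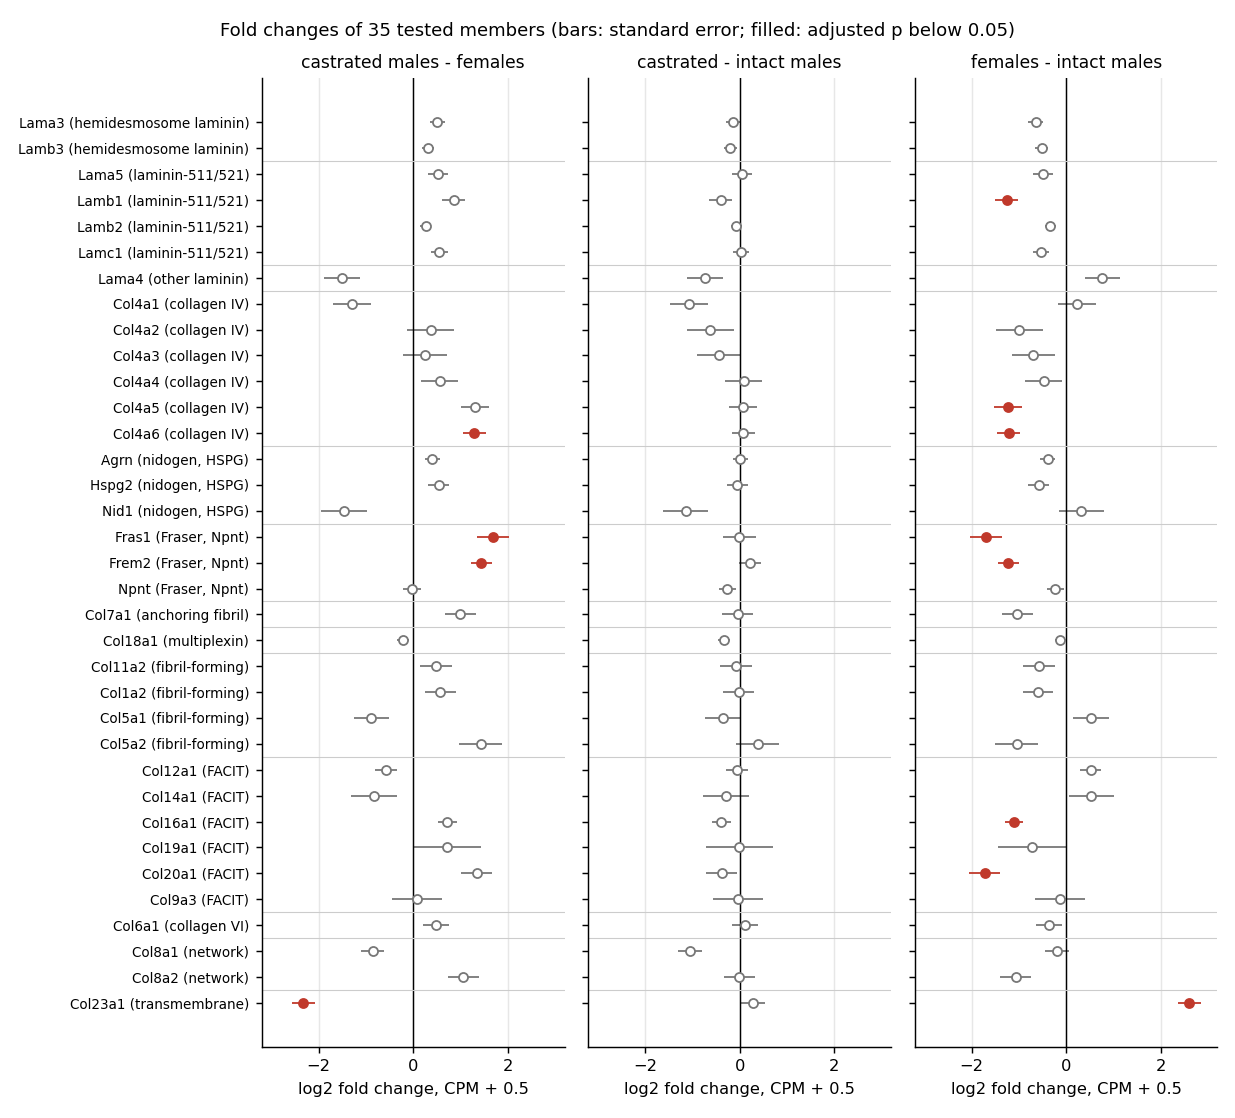
Fold change (log2 of CPM + 0.5) of 35 tested genes, grouped by role, for castrated males minus females, castrated minus intact males and females minus intact males, with standard errors as bars and filled points where the adjusted p was below 0.05. The middle panel has no filled point, the left panel has 4 and the right panel 8.

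Lama3 and Lamb3 encode the alpha 3 and beta 3 chains of the laminin that hemidesmosomes bind to hold basal cells in place, and both were abundant. Lama3, the alpha 3 chain, had 295 and 296 CPM in castrated males, 245 and 175 CPM in females and 321 and 326 CPM in intact males, and the difference of females from intact males missed the threshold (log2 fold change -0.64 ± 0.16 SE, limma adjusted p = 0.0503). Lamb3, the beta 3 chain, had 1064 and 1093 CPM in castrated males, 888 and 849 CPM in females and 1358 and 1131 CPM in intact males (females minus intact males -0.51 ± 0.14, adjusted p = 0.0622). The female libraries were the lowest in both chains, and the castrated males lay below the intact males without passing the test. Per kilobase of exon, Lamb3 had the highest level of all 36 genes, 163 CPM in castrated males, 131 CPM in females and 188 CPM in intact males. Lama3 had 27.5, 19.6 and 30.1 CPM per kilobase in the same order of groups.

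The laminins of the alpha 5 chain, found in basement membranes of most epithelia, carry Lamb1 or Lamb2 as beta chain and Lamc1 as gamma chain. Lamb1 had 33.7 and 38.1 CPM in castrated males, 25.9 and 14.7 CPM in females and 44.8 and 50.1 CPM in intact males. The 3 groups did not overlap in Lamb1, with females lowest and intact males highest. Lamb1 (chromosome 12, 31265234 to 31329644, plus strand) was lower in females than in intact males (-1.26 ± 0.24, limma adjusted p = 0.0252). This call was lost under 7 of 18 alternative settings. Castrated males did not pass in Lamb1 against intact males (-0.40 ± 0.24, adjusted p = 0.943) or against females (0.86 ± 0.24, adjusted p = 0.106). Lamb2, the other beta chain, had 203 and 192 CPM in castrated males, 170 and 159 CPM in females and 198 and 219 CPM in intact males, and did not pass (females minus intact males -0.34 ± 0.12, adjusted p = 0.123). The ratio of Lamb1 to Lamb2 reads within a library was 0.166 and 0.199 in castrated males, 0.152 and 0.0927 in females and 0.227 and 0.228 in intact males. It was lowest in females and highest in intact males. The ratio rests on the same Lamb1 reads, so it is no separate support for the Lamb1 difference. Lama5 had 161 and 135 CPM in castrated males, 129 and 80.3 CPM in females and 134 and 153 CPM in intact males (females minus intact males -0.49 ± 0.21, adjusted p = 0.194). Lamc1 had 39.0 and 48.5 CPM in castrated males, 28.8 and 30.1 CPM in females and 38.2 and 47.7 CPM in intact males (females minus intact males -0.53 ± 0.17, adjusted p = 0.103). In both genes the female libraries were the lowest and the male groups overlapped.

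Laminin chains known from other tissues were low or barely detected. Lama4, a chain known from vessels, muscle and fat, had 2.39 and 3.19 CPM in castrated males, 8.18 and 9.36 CPM in females and 7.56 and 3.17 CPM in intact males. Castrated males were below females (-1.50 ± 0.38, adjusted p = 0.0821) without passing the test, and the intact male libraries were far apart, with replicate 2 at the castrated level. The summed endothelial markers were 11.5 and 9.56 CPM in castrated males, 10.5 and 11.7 CPM in females and 19.8 and 10.6 CPM in intact males, and their part in Lama4 was not tested. Lama1 reached at most 14 reads (female replicate 1), Lama2 at most 7 and Lamc3 at most 2 in a library, and none of them was tested.

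Collagen IV, the network collagen of basement membranes, is made as trimers of the alpha 1 and 2, alpha 3 to 5, or alpha 5 and 6 chains, and only the X-linked Col4a5 and Col4a6 were abundant. Col4a6 had 124 and 111 CPM in castrated males, 61.4 and 37.1 CPM in females and 93.2 and 133 CPM in intact males. Col4a5 had 89.5 and 98.8 CPM in castrated males, 49.4 and 28.8 CPM in females and 66.5 and 120 CPM in intact males. In both genes the females lay below both male groups, and both castrated males lay between the 2 intact males. Col4a6 was lower in females than in intact males (-1.21 ± 0.24, adjusted p = 0.0277) and higher in castrated males than in females (1.29 ± 0.24, adjusted p = 0.0423). Col4a5 was lower in females than in intact males (-1.23 ± 0.30, adjusted p = 0.0482), a call that was lost under 13 of 18 alternative settings, and castrated males differed from females by 1.31 ± 0.30 (adjusted p = 0.0685). The Col4a6 calls were lost under 7 of 18 alternative settings against intact males and 8 of 18 between castrated males and females. Castrated males differed from intact males by 0.07 in both, with 95% intervals from -0.48 to 0.62 for Col4a6 and from -0.61 to 0.75 for Col4a5. The start sites of the pair lie 1309 bases apart on chromosome X (GENCODE M21, GRCm38), with Col4a6 on the minus strand (141165403 to 141474076) and Col4a5 on the plus strand (141475385 to 141689234). The ratio of Col4a5 to Col4a6 reads stayed between 0.713 and 0.904 over the 6 libraries, and was 0.805 and 0.778 in females.

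The other collagen IV pairs had few reads. Col4a1 had 0.682 and 1.37 CPM in castrated males, 2.25 and 4.36 CPM in females and 3.09 and 2.23 CPM in intact males, and Col4a2 3.87 and 2.85, 4.80 and 1.15, and 5.11 and 5.64 CPM in the same order of groups. Castrated males were the lowest in Col4a1, though not past the threshold (against females -1.30 ± 0.40, adjusted p = 0.121, and against intact males -1.08 ± 0.40, adjusted p = 0.781). Exons of Col4a1 and Col4a2 overlap by 22 bases on opposite strands, and the strand setting of the counting is not given. Col4a3 had 3.19 and 1.71 CPM in castrated males, 2.15 and 1.67 CPM in females and 5.54 and 2.00 CPM in intact males, and Col4a4 had 3.41 and 3.42, 2.76 and 1.67, and 4.69 and 2.12 CPM in the same order of groups. Neither of these passed in any comparison.

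Fras1 and Frem2 encode large matrix proteins that form a complex beneath the embryonic epidermis of the mouse, and loss of either one blisters the skin of mouse fetuses. Fras1 had 76.5 and 78.2 CPM in castrated males, 31.8 and 17.6 CPM in females and 54.2 and 111 CPM in intact males. Frem2 had 90.3 and 92.9 CPM in castrated males, 40.9 and 27.2 CPM in females and 64.5 and 95.5 CPM in intact males. Females lay below all male libraries in both genes, and castrated males lay between the 2 intact males. Fras1 was lower in females than in intact males (-1.69 ± 0.34, adjusted p = 0.0280) and higher in castrated males than in females (1.69 ± 0.34, adjusted p = 0.0497). Frem2 was lower in females than in intact males (-1.22 ± 0.23, adjusted p = 0.0235) and higher in castrated males than in females (1.44 ± 0.23, adjusted p = 0.0244). Of 18 alternative settings, 7 ended the call between females and intact males in each of the 2 genes, and 11 (Fras1) and 6 (Frem2) ended that between castrated males and females. Castrated minus intact males was -0.00 ± 0.34 for Fras1, with a 95% interval from -0.78 to 0.77, and 0.22 ± 0.23 for Frem2, with an interval from -0.30 to 0.74. Fras1 lies on chromosome 5 (96373955 to 96784728, plus strand) and Frem2 on chromosome 3 (53513938 to 53657355, minus strand), and the ratio of their reads ran from 0.646 (female replicate 2) to 1.16 (intact male replicate 2). Frem1, the partner of both, had 1 read in all 6 libraries together. Npnt, nephronectin, which binds integrin alpha 8 and lies in the basement membrane of mouse hair follicles, had 34.8 and 28.8 CPM in castrated males, 35.0 and 29.8 CPM in females and 42.7 and 33.7 CPM in intact males. Its groups overlapped in all 3 comparisons (females minus intact males -0.23 ± 0.18, adjusted p = 0.469).

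Of the linkers between the laminin and collagen IV networks, the proteoglycan agrin was the most abundant per kilobase of exon. Agrn had 217 and 249 CPM in castrated males, 191 and 161 CPM in females and 203 and 261 CPM in intact males (females minus intact males -0.39 ± 0.16, adjusted p = 0.171). Hspg2, perlecan, had 14.9 and 21.2 CPM in castrated males, 13.6 and 10.8 CPM in females and 19.8 and 17.0 CPM in intact males (-0.58 ± 0.23, adjusted p = 0.161). In both the female libraries were the lowest, without passing the test. Nid1, nidogen 1, had 0.227 and 0.683 CPM in castrated males, 3.48 and 1.15 CPM in females and 1.70 and 1.41 CPM in intact males, and Nid2 reached at most 9 reads in a library and was not tested. At these depths 3 reads are worth 0.307 to 0.385 CPM, so castrated males were at 2 to 6 reads of Nid1.

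Collagens VII and XVIII also belong to the dermal-epidermal junction. Col7a1, the collagen of anchoring fibrils, had 245 and 202 CPM in castrated males, 154 and 80.3 CPM in females and 169 and 309 CPM in intact males. The females were the lowest, but the intact males were far apart, and the difference did not pass (-1.04 ± 0.33, adjusted p = 0.0974, and castrated males minus females 1.00 ± 0.33, adjusted p = 0.137). Col18a1, the source of endostatin and a proteoglycan of epithelial basement membranes, had 235 and 205 CPM in castrated males, 255 and 252 CPM in females and 292 and 260 CPM in intact males. Castrated males were the lowest in Col18a1 (against intact males -0.33 ± 0.12, adjusted p = 0.782), and females differed little from intact males (-0.12 ± 0.12, 95% interval from -0.40 to 0.16). Col15a1, the other multiplexin, had 3 reads in castrated male replicate 2 and none elsewhere.

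**Figure D3:**
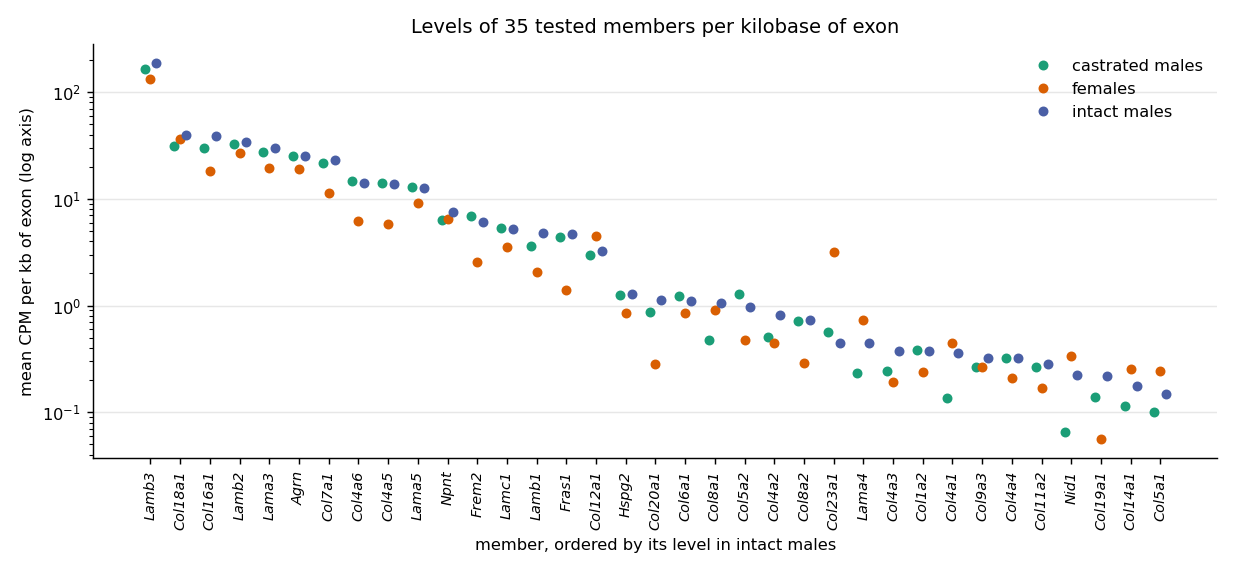
Mean level per kilobase of exon (CPM per kb, log axis, mean of 2 libraries) of 35 tested genes in castrated males, females and intact males, ordered by the level in intact males. Lamb3 stands alone at the top, at 163, 131 and 188 CPM per kb, and the fibril-forming genes Col5a2, Col1a2, Col11a2 and Col5a1 lie at 1.29 CPM per kb or less.

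Fibril-forming collagens, the rope collagens of dermis and cartilage, were among the less abundant genes. Of 11 such genes 4 had enough reads to test, against 22 of 28 genes of the basement membrane. Col5a2 had 8.64 and 16.2 CPM in castrated males, 6.65 and 2.44 CPM in females and 7.14 and 11.3 CPM in intact males (females minus intact males -1.05 ± 0.45, adjusted p = 0.194, and castrated males minus females 1.43 ± 0.45, adjusted p = 0.127). Per kilobase of exon its level was 1.29 CPM in castrated males, 0.473 CPM in females and 0.960 CPM in intact males, the highest of the 4. Col1a2 had 3.64 and 5.81 CPM in castrated males, 3.68 and 2.31 CPM in females and 4.90 and 4.46 CPM in intact males (females minus intact males -0.60 ± 0.33, adjusted p = 0.295). Col11a2 had 0.897 to 2.05 CPM and Col5a1 0.797 to 2.56 CPM over the 6 libraries. Col1a1, the main chain of dermal collagen I, had 2 to 7 reads in each library, Col3a1 2 reads in intact male replicate 1 and none elsewhere, and Col2a1, the collagen of cartilage, 6 reads in intact male replicate 2 and 1 in female replicate 1. Col5a3 (at most 3 reads in a library), Col24a1 (1 read in all) and Col27a1 (at most 4) were also not tested, and Col11a1 had no read.

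The 2 classes were set side by side over tested genes. Between females and intact males 6 of 22 basement membrane genes were lower and 0 higher, with a median of -0.56 (limma), where 2.4% of all genes were lower, and 0 of 4 fibril-forming genes passed, with a median of -0.59. Between castrated males and females 3 of 22 basement membrane genes were higher and 0 lower, with a median of 0.52, where 0.566% of all genes were higher, and 0 of 4 fibril-forming genes passed, with a median of 0.53. At such shares a count of 0 among 4 genes says nothing of the class. Unadjusted p was below 0.05 for 1 of 4 fibril-forming and 14 of 22 basement membrane genes between females and intact males. Over all genes tested it was below 0.05 for 3826 of 15362. Between castrated males and females it was so for 2 of 4 and 16 of 22, against 3323 of all genes. Voom did not call any fibril-forming gene in either comparison. Between castrated and intact males the medians were -0.06 and -0.05 with 0 genes past the test in either class. There 3 basement membrane and 0 fibril-forming genes had an unadjusted p below 0.05, against 908 of 15362 genes tested. The medians of the classes were close. Col4a1 to Col4a4, Nid1 and Lama4 of the basement membrane were as low, and stayed at 9.36 CPM or less in every library. No test of the difference between the classes was made.

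Fibril-associated collagens (FACITs), which sit on the surface of fibrils, gave 2 of the genes lower in females. Col16a1, known from the junction zone of human skin, had 226 and 178 CPM in castrated males, 145 and 102 CPM in females and 233 and 294 CPM in intact males. The 3 groups did not overlap, with females lowest and intact males highest. Col16a1 was lower in females than in intact males (-1.10 ± 0.20, adjusted p = 0.0214), while castrated males did not pass against females (0.72 ± 0.20, adjusted p = 0.102) or intact males (-0.39 ± 0.20, adjusted p = 0.900). Col20a1 had 5.57 and 3.42 CPM in castrated males, 1.74 and 1.15 CPM in females and 6.28 and 5.41 CPM in intact males, and was lower in females than in intact males (-1.72 ± 0.33, adjusted p = 0.0248). Castrated males overlapped intact males in Col20a1 and lay above females (1.34 ± 0.33, adjusted p = 0.0793). Against intact males the Col16a1 call in females was lost under 5 of 18 alternative settings, and that of Col20a1 under 7 of 17. Col16a1 lies on chromosome 4 (130047840 to 130099283) and Col20a1 on chromosome 2 (180986535 to 181018363), both on the plus strand. Col12a1 ran the other way, with 46.5 and 44.7 CPM in castrated males, 63.1 and 73.2 CPM in females and 36.1 and 62.0 CPM in intact males. Its female libraries were the highest, without passing the test (females minus intact males 0.52 ± 0.23, adjusted p = 0.203, and castrated males minus females -0.57 ± 0.23, adjusted p = 0.196). Col14a1, Col9a3 and Col19a1 were tested at 0.107 to 2.94 CPM and did not pass, Col9a1 and Col9a2 had at most 7 reads in a library, and Col22a1 had none.

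Col23a1, a transmembrane collagen shed from the cell surface, gave the largest fold change of the 36 genes. It had 3.19 and 3.30 CPM in castrated males, 16.3 and 20.4 CPM in females and 2.56 and 2.58 CPM in intact males. Females lay far above both male groups, and castrated males lay narrowly above intact males. Col23a1 was higher in females than in intact males (2.61 ± 0.25, adjusted p = 0.00192) and lower in castrated males than in females (-2.32 ± 0.25, adjusted p = 0.00391). Castrated and intact males did not differ past the threshold (0.29 ± 0.25, 95% interval from -0.28 to 0.85, adjusted p = 1). The call between females and intact males was kept under 18 of 18 alternative settings, with fold changes from 2.15 to 2.79, while that between castrated males and females was lost without female replicate 2 (adjusted p = 0.0865) or either castrated male library. Col23a1 lies on chromosome 11 (51289920 to 51583918, plus strand). Of the other transmembrane collagens, Col25a1 reached 4 reads in a library and Col13a1 had none.

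Network-forming and beaded collagens were rare. Col8a1, a short-chain collagen of vessels and cornea, had 3.30 and 4.21 CPM in castrated males, 6.75 and 7.56 CPM in females and 8.52 and 7.99 CPM in intact males. Castrated males lay below both other groups, but the test did not pass (against females -0.85 ± 0.25, adjusted p = 0.107, and against intact males -1.05 ± 0.25, adjusted p = 0.437). Col8a2, its partner chain, had 3.64 and 2.85 CPM in castrated males, 1.43 and 1.15 CPM in females and 4.05 and 2.58 CPM in intact males (females minus intact males -1.07 ± 0.33, adjusted p = 0.0907). The 2 partners thus differed in which group was lowest, castrated males for Col8a1 and females for Col8a2. Col6a1 had 4.66 and 6.03 CPM in castrated males, 4.19 and 3.21 CPM in females and 4.47 and 5.29 CPM in intact males, while Col6a2 and Col6a6 had at most 10 and 5 reads in a library, Col6a3 2 reads in all, and Col6a4 and Col6a5 none. Col10a1, Col28a1 and Col26a1 had at most 3 reads in a library. Among the 26 genes not tested, 16 had at most 3 reads in every library and 5 had none at all.

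The female libraries differed from each other in these genes. Of the 36 tested genes 28 (77.8%) were lower in female replicate 2 than in replicate 1, against 46.3% of all genes tested, while 50.0% of them were lower in replicate 2 in intact males and 47.2% in castrated males. The tested matrix genes had a median exon length of 7903 bases, against 3768 over all genes tested with a length. Across genes, the deviation of a library from the mean of all libraries went with length at a Spearman rho of 0.105 and 0.0404 in castrated males, -0.0638 and -0.149 in females and 0.0679 and 0.0881 in intact males, a description over genes that are not independent. With the trend in length taken out of each library, 8 genes passed between females and intact males (6.07% of all genes). The counts were 0 between castrated and intact males (0.0653%) and 4 between castrated males and females (1.74%). The medians were -0.46, -0.06 and 0.42 in the same order of comparisons. Between females and intact males Col4a5 was the gene that did not pass then (limma adjusted p = 0.0513).

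**Figure D4:**
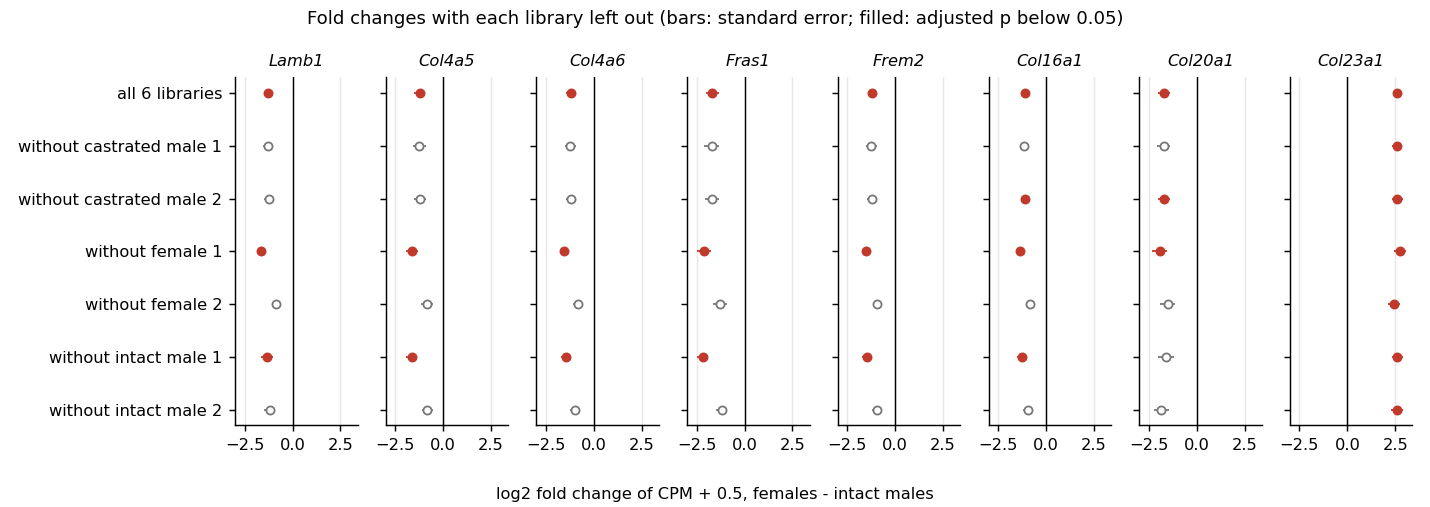
Fold change between females and intact males (log2 of CPM + 0.5, bars standard errors) of 8 genes with all 6 libraries and with each library left out, filled where the adjusted p was below 0.05. The sign was kept in each gene under each omission, Col23a1 passed in all of them, and the other 7 did not pass without female replicate 2.

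Genes that process or accompany the matrix were read from lists of other genes. Of 13 tested partners of the basement membrane, 4 were lower in females than in intact males and none higher (limma), with a median of -0.74, where 2.4% of all genes were lower. Sparc, a collagen-binding glycoprotein, had 99.6 and 162 CPM in castrated males, 37.3 and 40.0 CPM in females and 95.3 and 191 CPM in intact males. Both female libraries lay below the rest, and Sparc was lower in females than in intact males (-1.79 ± 0.31, adjusted p = 0.0202) and higher in castrated males than in females (1.71 ± 0.31, adjusted p = 0.0397). Tgfbi, a secreted collagen-binding protein, had 1184 and 1175 CPM in castrated males, 945 and 803 CPM in females and 1509 and 1402 CPM in intact males (females minus intact males -0.74 ± 0.14, adjusted p = 0.0226). Egfl6, a basement membrane protein of hair follicles (-1.20 ± 0.28, adjusted p = 0.0428), and Ecm1, a glycoprotein that binds perlecan (-0.73 ± 0.17, adjusted p = 0.0418), were the other two.

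Of 23 tested genes of collagen synthesis, 3 were lower in females than in intact males and none higher (limma), with a median of -0.02, where 2.4% of all genes were lower. P3h4, a partner of the lysyl hydroxylases, had 12.5 and 13.2 CPM in castrated males, 7.46 and 4.10 CPM in females and 33.0 and 15.5 CPM in intact males (females minus intact males -1.94 ± 0.37, adjusted p = 0.0248). Adamts14, a protease that trims procollagen, had 119 and 101 CPM in castrated males, 54.4 and 19.1 CPM in females and 110 and 121 CPM in intact males (-1.82 ± 0.38, adjusted p = 0.0303), and Tll1, another procollagen protease, was lower as well (-1.49 ± 0.34, adjusted p = 0.0403). Female libraries were the lowest in these genes. Serpinh1, the collagen chaperone of the endoplasmic reticulum, had 166 and 219 CPM in castrated males, 156 and 142 CPM in females and 175 and 225 CPM in intact males, and did not pass (-0.41 ± 0.17, adjusted p = 0.182). Of 22 tested matrix receptors 1 was higher in females than in intact males and none lower, with a median of -0.24, a share near the 3.71% of all genes that were higher. That gene was Cd44, a receptor of hyaluronan, with 293 and 351 CPM in castrated males, 442 and 576 CPM in females and 301 and 301 CPM in intact males (0.74 ± 0.16, adjusted p = 0.0302). Itga6, the sorting antigen and laminin receptor, did not pass (-0.11 ± 0.12, adjusted p = 0.603), nor did its partner Itgb4 (-0.45 ± 0.13, adjusted p = 0.0705). Of 16 tested matrix proteases and inhibitors 1 was lower in females than in intact males, Timp3, an inhibitor bound to the matrix (-1.07 ± 0.19, adjusted p = 0.0210), with a list median of -0.35, where 2.4% of all genes were lower. Between castrated and intact males none of the genes in these 4 lists passed, and between castrated males and females Sparc was the only one.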

How the data were processed

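The tools named by the submitters' processing notes are HTSeq 0.11.1, STAR 2.7.5a, FastQC and Picard, and the builds mm10 and GRCm38. Which annotation, strand setting and scaling the authors chose is not given in the sources used here. Values as deposited by the authors are scores: within a library each is a whole multiple, after rounding, of a step between 2.07 and 2.38, and each column sums to about 20000000. Division by that step returned whole reads, and 100.0% of values lay within rounding. Reads are thus recovered from rounded scores and are no raw counts of the authors. They did not pass the tolerance set for recovered counts, so no count model was run on them, and read numbers given here are estimates. Replicates differed by more than sampling noise (chi-square per degree of freedom 4.79 to 13.6).

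Reads were scaled by TMM factors (0.927 to 1.03). Genes were tested if 2 or more libraries had the CPM of 10 reads at median depth (1.16 CPM) and all libraries together 15 reads. The test ran on log2(CPM + 0.5) with limma 3.58.1 (R 4.3.3), with all 6 libraries in 1 fit, an intensity trend and 3 residual degrees of freedom. P-values are two-sided and adjusted by Benjamini-Hochberg over all 15362 genes within a comparison. Fold changes on this scale understate the change of low genes. The step search and the fit were also run on simulated data, and the outcome is not given here.

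Exon lengths are from GENCODE M21. Genes were named where they passed a test, where they belong to the matrix set, or as defining genes of a list. The suprabasal marker that was higher in castrated males than in females is counted without its name. The members, lists and tests were chosen with earlier results of these data known. Alternatives were other scalings, pseudocounts, filters and variance models, voom, a replicate block, a length correction, fits of 2 groups and leaving out each library. The library of intact male replicate 2 is numbered 3 in its name, and the title was used. The values of 1 gene of the set, which is counted, are not reported here.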

Additional observations from a re-analysis of the deposited data

How the results depend on the processing

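With 2 libraries per group, counts of matrix genes past the test moved more than fold changes did. Over 13 gene and comparison pairs and 233 values under alternatives, no fold change reversed, 144 kept the call and 89 lost it. Between females and intact males (9 genes), 1 passed with no filter on low values, 1 with no intensity trend and 2 with only the groups compared in the fit. Of all genes 0.368%, 0.67% and 1.74% passed in these fits, against 6.11% in the main one. Leaving out 1 library gave matrix medians from -0.81 to -0.33. Between castrated males and females (4 genes), 1 passed with no filter, 1 with no intensity trend and 2 with voom weights. Of all genes 0.118%, 0.384% and 0.573% passed there, against 1.71% in the main fit. Leaving out 1 library gave matrix medians from 0.28 to 0.72. Between castrated and intact males the count was 0 under each alternative run. A fit without the filter tests more genes, and one without a library has fewer residual degrees of freedom and takes the lone library of a group to vary like the others. The all-gene median moved furthest with library totals alone, to -0.07 (females minus intact males) and to 0.08 (castrated males minus females).

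No label says that replicate numbers pair the libraries, and deviations of same-numbered libraries correlated at 0.19 (castrated males and females), -0.01 (castrated and intact males) and -0.15 (females and intact males). With the number as a replicate block, 8 genes passed between females and intact males, 0 between castrated and intact males and 2 between castrated males and females, of which 1 was shared with the 4 above. There Col23a1 kept its call (adjusted p = 0.0135), while Col4a6 (0.0669), Fras1 (0.0790) and Frem2 (0.0512) lost theirs. With the intact male numbers crossed, a pairing chosen after seeing the data, the counts were 12, 0 and 8 in the same order. Of all genes 8.77%, 0.0391% and 4.47% passed there. The 26 genes under the filter on low values were not tested, and tested genes of a few CPM rest on few reads in some libraries.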
